A study of Xenopus laevis with 6 samples.

Results

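The TCF/LEF transcription factors, the Groucho corepressors they hold and the beta-catenin partners Bcl9 and Pygo2 were followed in Xenopus laevis animal pole explants. The genes were chosen by name, as every row of the authors' table whose symbol without the homeolog suffix was lef1, tcf7, tcf7l1, tcf7l2, tle1, tle2, tle3, tle4, bcl9 or pygo2. This gave 14 rows of 49281 genes, covering 9 of the 10 symbols. They were the L and S copies of lef1, tcf7l1, tle1, bcl9 and pygo2, with tcf7.S, tcf7l2.L, tle2.L and tle4.S. This frog is an allotetraploid, and the suffixes L and S mark the copies of a gene on its long and short subgenomes. RefSeq lists tle3 among the synonyms of tle2.L and tle3b among those of tle1.S. It held 13 of the 14 rows by symbol and lacked tle1.L, whose name comes from the authors' table alone. Under its own symbol tle3 was not analysed here, nor were tcf7.L, tcf7l2.S, tle2.S and tle4.L.

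Treated explants received K02288, which blocks BMP type I receptor kinases, and CHIR99021, which blocks GSK3 and so stabilises beta-catenin, from stage 9 to stage 17, and the labels call them reprogrammed to neural crest. The comparison explants received the solvent DMSO over the same stages and are labelled epidermal. All were wild type and taken at stage 17, with 3 bulk RNA libraries per group. The labels name no clutch or animal, so p-values speak only of library-to-library spread, part of which may be technical. In bulk RNA, fewer cells of a type and less RNA per cell cannot be told apart.

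TCF/LEF proteins bind DNA through an HMG box and have little activity of their own. Without a Wnt signal they hold Groucho/TLE proteins, which silence the target. When beta-catenin enters the nucleus it displaces Groucho and brings in Bcl9, which in turn binds Pygo2. In the frog embryo Tcf7l1 (long known as XTcf3) acts mainly as a repressor, whereas Lef1 acts mainly as an activator. Lef1 and Tcf7 are themselves among the genes that Wnt signalling is known to induce in several vertebrate tissues, and Wnt signalling is a classical inducer of neural crest at the neural plate border.

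Gene reads numbered 35187635 to 36618892 in the K02288/CHIR libraries and 33706389 to 43155031 in the DMSO libraries. Reads aligned to more than 1 place made up 11.1% in DMSO library a and 4.93% to 5.91% in the other 5. Such reads are lost to both copies of a gene, so L and S levels carry this uncertainty. K02288/CHIR library a stood apart on the first principal component, at -106, against -187 and -196 in libraries b and c and 156 to 170 in DMSO libraries. Without it 9 of the 13 tested homeologs described here were higher and 2 lower, the same counts as with it. Over all genes 5949 were higher and 7029 lower without it, against 5995 and 6811 with it.

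Explants treated with K02288/CHIR held more transcript of most of these genes and less of tcf7l1. Of the 13 homeologs with a mean of at least 10 normalized counts, 9 were higher and 2 lower in K02288/CHIR explants by limma (adjusted p under 0.05), and 2 did not pass. Among all 22932 genes tested, 26.1% were higher and 29.7% lower, 55.8% in all. All 13 had a mean of at least 10 in both groups, so none entered through 1 group alone. Groups without overlap were found for 11 of the 13, and for 64.9% of all tested genes. The median log2 fold of the 13 was 1.39, beside 0.01 over all tested genes. Folds are on the scale of log2(normalized count + 1).

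Among the 13, the largest fold belonged to tcf7, whose product (Tcf1) can act as activator or, in forms without the beta-catenin binding end, as repressor. Normalized counts of tcf7.S were 4067, 4098 and 4102 in K02288/CHIR libraries a to c, against 54.2, 70.4 and 54.3 in DMSO libraries a to c. The treated libraries lay close together, with an SD of 18.9, and every one was far above every DMSO library. That SD was below the counting error of a gene with 13225 reads over the treated libraries, so it is no measure of the full spread. The ratio of means was 68.5, and the log2 fold was 6.09 ± 0.17 (SE; limma adjusted p = 3.86e-05). By unadjusted p it ranked 2 of 22932 genes, and by size of fold 576.

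**Figure D1:**
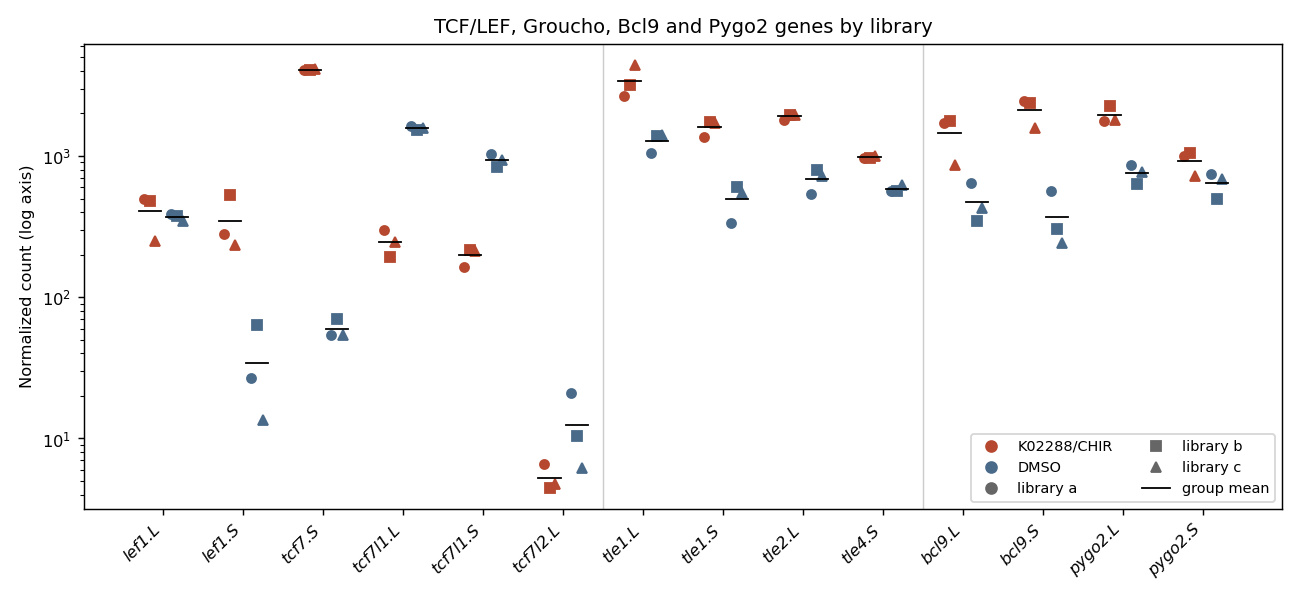
Normalized count of each homeolog (log axis) in the 6 libraries, with K02288/CHIR libraries left and DMSO libraries right within each gene, letters a to c as point shapes and bars at group means. The points of tcf7.S and of both tcf7l1 copies form separate groups in opposite directions, and those of lef1.L, pygo2.S and tcf7l2.L overlap.

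Transcripts of tcf7l1, the main TCF repressor of the early frog embryo, fell. tcf7l1.L had 298, 192 and 245 normalized counts in K02288/CHIR libraries a to c, against 1641, 1526 and 1590 in DMSO libraries. tcf7l1.S had 163, 217 and 213 in K02288/CHIR libraries, against 1030, 840.0 and 933 in DMSO libraries. Both copies were lower in all 3 treated libraries than in any DMSO library. The log2 folds were -2.71 ± 0.19 for L and -2.24 ± 0.19 for S (SE; limma adjusted p = 0.000127 and 0.000191). In means, the L copy was 6.47-fold and the S copy 4.73-fold lower in K02288/CHIR explants. Residual tcf7l1 was still covered by 789 reads of L and 640 of S over the treated libraries, so the transcripts were reduced and not absent.

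The copies of lef1 did not move alike. lef1.S had 281, 526 and 234 normalized counts in K02288/CHIR libraries a to c, against 26.6, 63.2 and 13.6 in DMSO libraries. The groups did not overlap, library b was the highest of each group, and the log2 fold was 3.47 ± 0.59 (SE; limma adjusted p = 0.00253). lef1.L had 498, 481 and 252 normalized counts in K02288/CHIR libraries, against 389, 378 and 345 in DMSO libraries. Here treated libraries a and b lay above the DMSO range and library c below it. The log2 fold of lef1.L was 0.08, with a 95% interval of -0.59 to 0.76 (limma adjusted p = 0.825). With both copies added in each library, lef1 averaged 757 ± 262 normalized counts in K02288/CHIR explants and 405 ± 42.6 in DMSO explants (SD, n = 3), and the sum passed in a fit of summed homeologs over all symbols (log2 fold 0.84 ± 0.28 SE, limma adjusted p = 0.0381).

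Reads of tcf7l2, a factor with both activating and repressing forms, were scarce. tcf7l2.L had 6.60, 4.45 and 4.77 normalized counts in K02288/CHIR libraries, against 21.1, 10.4 and 6.18 in DMSO libraries, and lay below the mean required for the test. The groups overlapped. That is 17 reads over the treated and 38 over the DMSO libraries. In a fit that admitted means down to 1 its log2 fold was -0.97, with a 95% interval of -2.27 to 0.33 (limma adjusted p = 0.193). A further row, outside the naming rule, bears the provisional name tcf7l2 and held 6 reads over the treated and 73 over the DMSO libraries (1.81 ± 1.78 normalized counts in K02288/CHIR explants and 25.6 ± 5.79 in DMSO explants, SD, n = 3). It reached the mean required for the test through the DMSO libraries alone, and no test of it is given.

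The make-up of TCF/LEF transcripts differed between the groups. Transcript lengths were not used, so a share counts reads and is compared between groups, not between genes. tcf7.S supplied 77.3% ± 3.56 of the summed TCF/LEF counts in K02288/CHIR libraries and 2.00% ± 0.39 in DMSO libraries (SD, n = 3). The tcf7l1 copies supplied 4.65% ± 1.08 (L) and 3.74% ± 0.60 (S) in K02288/CHIR libraries, against 52.9% ± 1.09 (L) and 31.1% ± 1.82 (S) in DMSO libraries. Shares of lef1 were 7.69% ± 2.36 (L) and 6.48% ± 2.67 (S) in K02288/CHIR libraries, against 12.37% ± 0.69 (L) and 1.16% ± 0.91 (S) in DMSO libraries. Shares of a sum depend on each other, so a share can fall without a fall in counts. Mean counts of lef1.L were 410 in K02288/CHIR libraries and 371 in DMSO libraries. The summed total was 5294 ± 235 normalized counts in K02288/CHIR libraries and 2997 ± 146 in DMSO libraries. Counts of tcf7.S per count of summed tcf7l1 were 8.83, 10.02 and 8.96 in K02288/CHIR libraries a to c, against 0.0203, 0.0298 and 0.0215 in DMSO libraries. These shares and ratios are descriptions without a test.

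**Figure D2:**
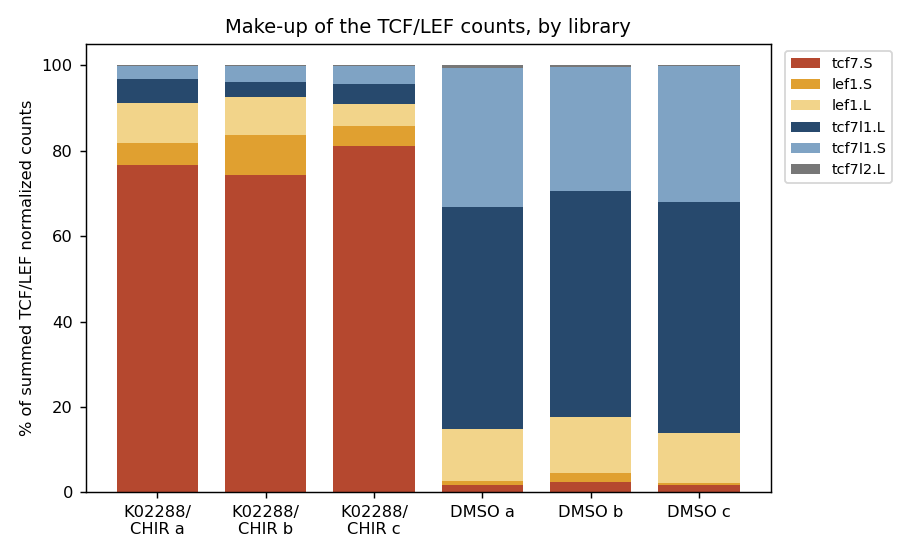
Share of each homeolog in the summed TCF/LEF normalized counts (%, not corrected for length), 1 bar per library, K02288/CHIR libraries left and DMSO libraries right. tcf7.S fills 74.3% to 81.2% of the treated bars, and the tcf7l1 copies fill most of the DMSO bars.

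Groucho corepressors, which form tetramers on TCF and on many other repressors, rose together. tle1.L had 2660, 3162 and 4400 normalized counts in K02288/CHIR libraries a to c, against 1053, 1375 and 1417 in DMSO libraries. tle1.S had 1359, 1747 and 1700 in K02288/CHIR libraries, against 333, 607 and 546 in DMSO libraries. For both copies library a was the lowest of each group, and the groups did not overlap. Log2 folds were 1.39 ± 0.22 for tle1.L and 1.73 ± 0.25 for tle1.S (SE; limma adjusted p = 0.00187 and 0.00135).

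tle2.L had 1813, 1962 and 1950 normalized counts in K02288/CHIR libraries, against 536, 796 and 719 in DMSO libraries, a log2 fold of 1.50 ± 0.17 (SE; limma adjusted p = 0.000598). tle4.S had 962, 974 and 1003 in K02288/CHIR libraries, against 568, 570 and 627 in DMSO libraries, a log2 fold of 0.74 ± 0.13 (SE; limma adjusted p = 0.00298). tle4.S was the smallest of the rises that passed, with little spread in either group. A row with the provisional name tle1, outside the naming rule, was also higher, at 3102 ± 325 normalized counts in K02288/CHIR libraries and 1205 ± 334 in DMSO libraries (SD, n = 3; log2 fold 1.39 ± 0.21 SE, limma adjusted p = 0.00148). Reads that align to more than 1 of such near copies are lost to each, so the split among tle rows is uncertain.

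The summed counts of the 4 tle rows were 7898 ± 1131 in K02288/CHIR libraries and 3049 ± 484 in DMSO libraries (SD, n = 3), a ratio of 2.59. Within that sum tle4.S supplied 12.6% ± 1.54 in K02288/CHIR libraries and 19.6% ± 2.94 in DMSO libraries, and tle1.L supplied 42.7% ± 5.15 in K02288/CHIR libraries and 42.1% ± 0.89 in DMSO libraries. tle5, a short family member (formerly Aes) without the WD40 propeller that opposes the long forms, was also higher. tle5.S had 4198, 3756 and 4428 normalized counts in K02288/CHIR libraries, against 2232, 2157 and 2381 in DMSO libraries (log2 fold 0.87 ± 0.12 SE, limma adjusted p = 0.00102). For tle5.L the log2 fold was 0.98 ± 0.15 (SE; limma adjusted p = 0.00191). Long tle counts per tle5 count were 1.37, 1.70 and 1.77 in K02288/CHIR libraries a to c, against 0.945, 1.33 and 1.19 in DMSO libraries, with the lowest treated value just above the highest DMSO value.

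Among the coactivators, bcl9 rose in both copies. bcl9.S had 2436, 2378 and 1572 normalized counts in K02288/CHIR libraries a to c, against 563, 307 and 242 in DMSO libraries (log2 fold 2.59 ± 0.34 SE, limma adjusted p = 0.000906). bcl9.L had 1712, 1769 and 871 in K02288/CHIR libraries, against 641, 349 and 429 in DMSO libraries (log2 fold 1.59 ± 0.34 SE, limma adjusted p = 0.00702). Library c was the lowest treated library for both copies, and the groups stayed apart for each.

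Pygo2, a reader of methylated histone tails that joins the complex through Bcl9, rose in 1 copy. pygo2.L had 1761, 2275 and 1812 normalized counts in K02288/CHIR libraries, against 863, 638 and 773 in DMSO libraries (log2 fold 1.36 ± 0.17 SE, limma adjusted p = 0.000810). pygo2.S had 997, 1053 and 722 in K02288/CHIR libraries, against 744, 498 and 687 in DMSO libraries, so that treated library c lay below DMSO library a. Its log2 fold was 0.52, with a 95% interval of -0.00463 to 1.05 (limma adjusted p = 0.0834). Its fold passed with upper quartile scaling (adjusted p = 0.0201) and without K02288/CHIR library c (adjusted p = 0.0477).

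Beta-catenin, which displaces Groucho from TCF/LEF proteins, showed no call at the transcript level in the main fit. ctnnb1.L averaged 16053 ± 688 normalized counts in K02288/CHIR explants and 13514 ± 2097 in DMSO explants, while ctnnb1.S averaged 19715 ± 1598 in K02288/CHIR explants and 17165 ± 808 in DMSO explants (SD, n = 3 each). The log2 fold was 0.26 for L (95% interval -0.07 to 0.59, limma adjusted p = 0.156) and 0.20 for S (-0.07 to 0.46, limma adjusted p = 0.172). The groups overlapped for ctnnb1.L. For ctnnb1.S they did not, as for 64.9% of all tested genes, with the lowest treated library at 18120 and the highest DMSO library at 17694. Neither copy passed in the main fit. Both copies passed, higher, under upper quartile scaling (limma adjusted p = 0.0218 and 0.0232), which shifts the median over all genes to 0.22. Such a scaling moves every fold by nearly the same amount. Relative to that median the folds of 0.47 and 0.41 were therefore 0.26 and 0.20, as in the main fit, which is no separate observation.

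**Figure D3:**
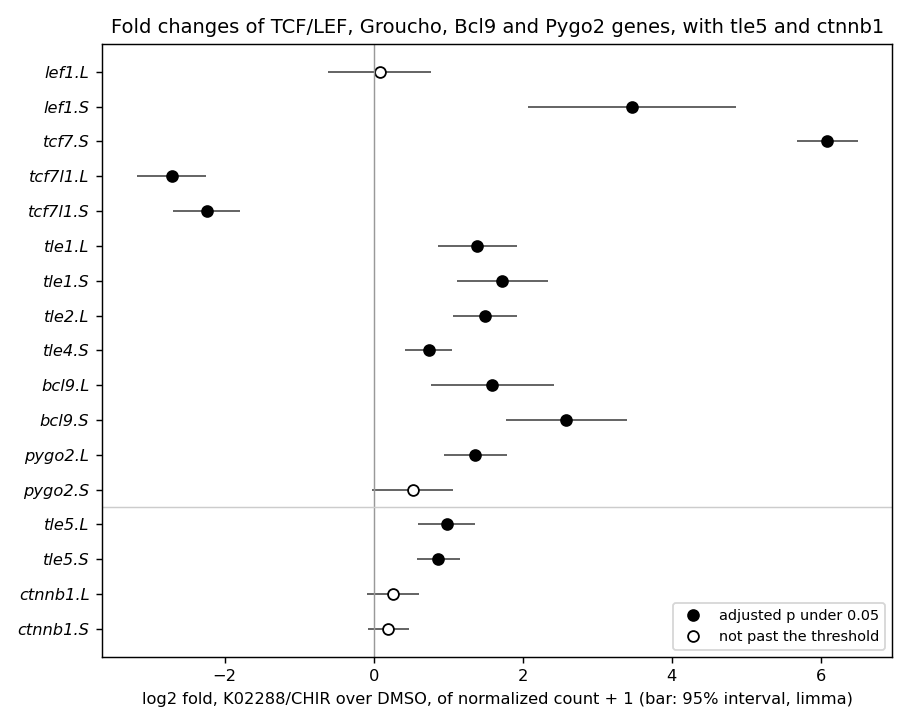
Log2 fold of K02288/CHIR over DMSO, with limma's 95% interval as bars, for the 13 tested homeologs and, under the grey line, for tle5 and ctnnb1; filled points passed an adjusted p of 0.05. The tcf7l1 copies alone lie left of 0, and lef1.L, pygo2.S and ctnnb1 have intervals that cross it.

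Whether the homeologs of a gene responded unequally was tested on log2(L + 1) minus log2(S + 1) in each library, for all 5796 pairs with both copies at a mean of at least 10. Of the 5 pairs here, 3 shifted their balance (limma adjusted p under 0.05), beside 38.0% of all pairs, where the median size of the shift was 0.61 on the log2 scale. In lef1 the L copy held 63.9%, 47.7% and 51.9% of the pair's counts in K02288/CHIR libraries a to c, against 93.6%, 85.7% and 96.2% in DMSO libraries. Every DMSO library was thus dominated by lef1.L, treated libraries b and c were near an even split, and treated library a lay between. The shift was -3.38 ± 0.54 (SE; limma adjusted p = 0.00418).

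The bcl9 pair moved the same way. Its L share was 41.3%, 42.7% and 35.7% in K02288/CHIR libraries, against 53.2%, 53.2% and 63.9% in DMSO libraries. The shift was -0.99 ± 0.23 (SE; limma adjusted p = 0.0146), a call lost without K02288/CHIR library c (adjusted p = 0.0530). The pygo2 pair moved the opposite way. Its L share was 63.9%, 68.4% and 71.5% in K02288/CHIR libraries, against 53.7%, 56.2% and 53.0% in DMSO libraries (shift 0.84 ± 0.17 SE, limma adjusted p = 0.00977).

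For tcf7l1 and tle1 no shift passed. The tcf7l1.L share was 64.6%, 47.0% and 53.5% in K02288/CHIR libraries, against 61.4%, 64.5% and 63.0% in DMSO libraries, with library a the only treated one inside or above the DMSO range. The shift was -0.47, with a 95% interval of -1.13 to 0.20 (limma adjusted p = 0.230). It passed without K02288/CHIR library a, at -0.75 (adjusted p = 0.0277). The tle1.L share was 67.6% ± 4.04 in K02288/CHIR libraries and 72.5% ± 3.30 in DMSO libraries (SD, n = 3), a shift of -0.34 with a 95% interval of -0.80 to 0.12 (limma adjusted p = 0.210).

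**Figure D4:**
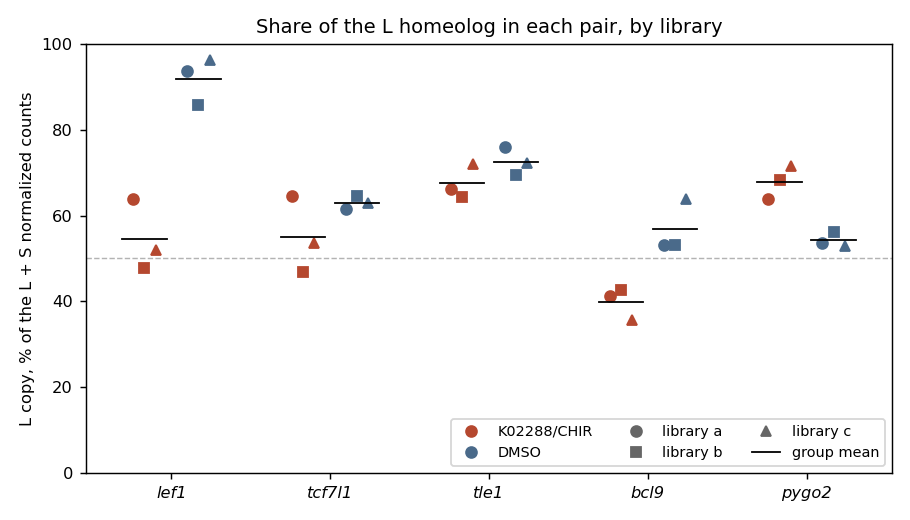
Share of the L copy in the L plus S normalized counts (%) for the 5 pairs, with K02288/CHIR libraries left and DMSO libraries right within each pair and bars at group means. The groups stand apart for lef1, bcl9 and pygo2, and overlap for tcf7l1 and tle1.

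Other genes that act at TCF/LEF sites were taken from a list of 37 symbols of coactivators, corepressors and modifiers. Of its 66 homeologs 61 were tested, and 28 were higher and 10 lower, beside 26.1% higher and 29.7% lower over all tested genes (55.8% in all). The median log2 fold was 0.50, beside 0.01 over all tested genes. Of the 28, 25 had a mean of at least 10 in both groups. The corepressor deacetylase hdac1 rose in both copies, L to 15419 ± 1338 normalized counts in K02288/CHIR explants, against 6702 ± 479 in DMSO explants (SD, n = 3), a log2 fold of 1.20 ± 0.12 (SE; limma adjusted p = 0.000324). hdac1.S rose by 1.06 ± 0.12. The arginine methyltransferase gene carm1.S rose by 1.49 ± 0.15, and smarca4.L, which encodes the remodeller Brg1 that beta-catenin recruits, by 1.37 ± 0.15.

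Genes of the single-stranded DNA binding proteins that join Ldb1 and Pygopus in the Wnt enhanceosome moved both ways. ssbp4.S had 146, 112 and 194 normalized counts in K02288/CHIR libraries, against 9.18, 9.32 and 3.71 in DMSO libraries, and reached the test through the treated libraries. The copies of ssbp3, added after their values were seen, had far more counts. ssbp3.L averaged 6556 in K02288/CHIR explants and 4086 in DMSO explants, and ssbp3.S 8174 and 3740. They rose by 0.69 ± 0.12 (L) and 1.12 ± 0.13 (S) on the log2 scale (SE; limma adjusted p = 0.00260 and 0.000621). ssbp2.L fell by 2.98 and ssbp2.S by 2.66 on the log2 scale (by limma, adjusted p = 0.000201 and 0.000403). ssbp2.L had 57.5, 48.02 and 80.1 normalized counts in K02288/CHIR libraries, against 447, 505 and 504 in DMSO libraries. The helicase genes ruvbl2.L and ruvbl2.S fell by 1.21 and 1.37, and cby1.S, which encodes the beta-catenin antagonist Chibby, by 1.53.

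The paralogs of bcl9 and pygo2 were expressed at far fewer counts. bcl9l.L had 90.7 ± 25.4 normalized counts in K02288/CHIR explants and 41.9 ± 15.8 in DMSO explants (SD, n = 3; log2 fold 1.12 ± 0.38 SE, limma adjusted p = 0.0407). That call was lost in the edgeR test (adjusted p = 0.0511), without K02288/CHIR library a (0.0977) or c (0.0862), and without DMSO library b (0.107) or c (0.120). bcl9l.S had a log2 fold of -0.14 (95% interval -0.91 to 0.62, limma adjusted p = 0.728). pygo1.L had 20.8 ± 2.70 normalized counts in K02288/CHIR explants and 12.6 ± 11.6 in DMSO explants (limma adjusted p = 0.222), and pygo1.S was below the mean required for the test.

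**Figure D5:**
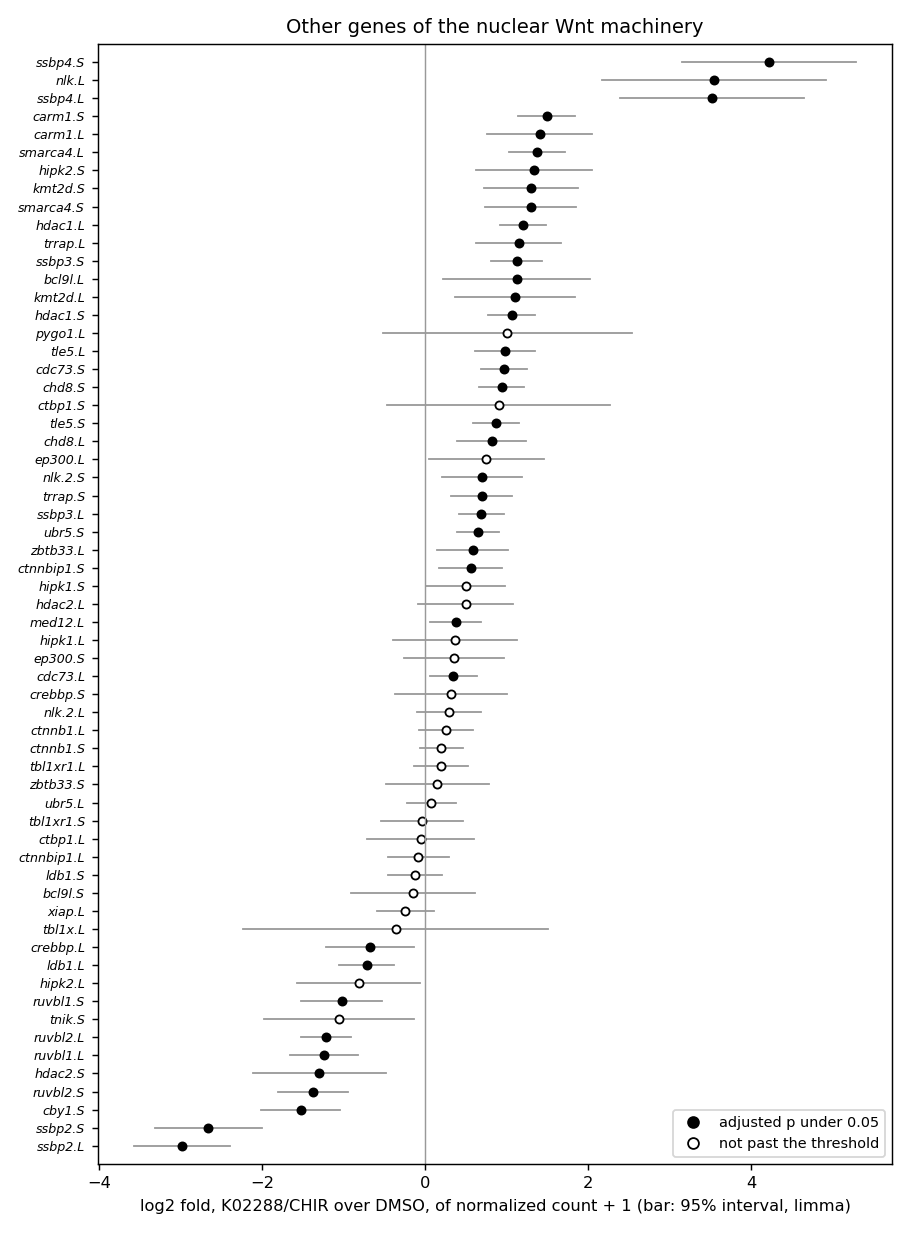
Log2 fold of K02288/CHIR over DMSO with limma's 95% interval for the 61 tested homeologs of the nuclear Wnt list, ordered by fold; filled points passed an adjusted p of 0.05. The copies of ssbp4 with nlk.L lie at the top and those of ssbp2 at the bottom. With DMSO means of 3.46 (ssbp4.L), 7.40 (ssbp4.S) and 2.74 (nlk.L), those at the top reached the test through the treated libraries.

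A list of transcription factors and adaptors, many from families known to bind Groucho through short motifs such as eh1 or WRPW, held 32 symbols with 51 homeologs. Of these only 20 were tested, 9 higher and 5 lower, beside 26.1% higher and 29.7% lower over all tested genes (55.8% in all). The median log2 fold was 0.38, beside 0.01 over all tested genes. Just 15 of the 20 had a mean of at least 10 in both groups, and of those 7 were higher and 3 lower. foxd3, which is also on the neural crest marker list, had 9496 ± 1974 (L) and 3725 ± 831 (S) normalized counts in K02288/CHIR explants (SD, n = 3), while DMSO libraries held up to 1.24 of L and no read of S. msx1.L, a border homeobox gene, rose by 2.42 ± 0.18 and msx1.S by 2.03 ± 0.23, and hes4.L, a Notch-related repressor, by 2.09 ± 0.18. hhex.L, a homeobox gene of the anterior endoderm, had 1.88, 0 and 0.954 normalized counts in K02288/CHIR libraries, against 136, 202 and 166 in DMSO libraries. six3.L, of the anterior neural plate, fell by 4.42 on the log2 scale. Of the forkhead gene foxa1, the L copy fell by 6.58 and the S copy fell by 1.88. The copies of the Notch target hes1 moved in opposite directions, with hes1.L falling by 1.00 on the log2 scale. hes1.S, added after its values were seen, rose to 940 ± 290 normalized counts in K02288/CHIR explants, against 219 ± 73.4 in DMSO explants (SD, n = 3; log2 fold 2.12 ± 0.34 SE, limma adjusted p = 0.00200). foxd3.L, foxd3.S, hhex.L and six3.L reached the test through the group where each is high. Without K02288/CHIR library a, 21 homeologs of this list were tested, 9 higher and 8 lower. Over all genes 5949 were higher and 7029 lower in that fit.

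Cell type markers differed between the same libraries. Their counts stand beside 26.1% higher and 29.7% lower over all tested genes (55.8% in all). Of 20 epidermal homeologs 14 were lower and 2 higher (10 lower and 2 higher by edgeR), with summed normalized counts of 401230 to 780639 in K02288/CHIR libraries and 1704770 to 2139960 in DMSO libraries. All 14 multiciliated and all 10 ionocyte homeologs were lower, of which 13 and 8 had a mean of at least 10 in both groups and the others reached the test through the DMSO libraries. The multiciliated sum was 620 to 2629 in K02288/CHIR libraries and 44382 to 51751 in DMSO libraries, and the ionocyte sum 234 to 991 in K02288/CHIR libraries and 29317 to 39396 in DMSO libraries. atp6v0d2.S had no read in K02288/CHIR libraries. Of 16 neural crest homeologs 14 were higher and 0 lower, but only 9 had a mean of at least 10 in both groups, and 7 of those were higher. The neural crest sums were 47431 to 94441 in K02288/CHIR libraries and 4467 to 5422 in DMSO libraries, in which foxd3.S and both sox10 copies had no read. Of 9 tested neural plate homeologs 6 were higher, 5 of them among the 8 with a mean of at least 10 in both groups, with sums of 11061 to 17159 in K02288/CHIR libraries and 1145 to 1432 in DMSO libraries. K02288/CHIR library a held the highest treated sum of epidermal, multiciliated, ionocyte and neural crest markers, and the lowest of neural plate markers.

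Mesoderm sums were 223 to 331 in K02288/CHIR libraries and 34.6 to 660 in DMSO libraries, with 4 of 11 homeologs tested. The 1 higher and the 1 lower reached the test through the group where each is high, since a single mesoderm homeolog had a mean of at least 10 in both groups and it was not called. Further, tbx6.S, meox2.L and myf5.S had no read in K02288/CHIR libraries, but only 21, 9 and 1 reads over the DMSO libraries, so these were near the floor in both groups. Endoderm sums were 1581 to 3670 in K02288/CHIR libraries and 11045 to 16378 in DMSO libraries. Of 9 endoderm homeologs 5 were tested, with 1 higher and 3 lower. Among these, 1 higher and 2 lower had a mean of at least 10 in both groups. With 55.8% of all tested genes called, these few mesoderm and endoderm calls say little about either list. The part of these cell types in the folds of the TCF/LEF, Groucho, Bcl9 and Pygo2 genes was not tested.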

How the data were processed

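Bulk RNA of 6 explant libraries was measured. The deposited signal of each library was taken to be a read count per gene divided by that library's size factor. The submitters' processing notes name DESeq and give no version. For aligner, counter, build and annotation the sources used here give nothing. All 184429 values above 0 (100%) were whole multiples of 1 read within 0.01 reads. The 5 summary rows of the counter were left out: outside any gene lay 10.9% to 12.8% of reads, and 0.439% to 0.716% were ambiguous. The cells of 1 row, shifted because its gene name was broken, were moved back, and 1 line was empty.

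Groups came from the treatment labels and column names. The members and lists were chosen with earlier results of these data known. limma 3.58.1 with trend was run in R 4.3.3 on log2(normalized count + 1) over all genes with a mean of at least 10, with Benjamini-Hochberg adjustment and a threshold of 0.05. L to S balance was fitted likewise over all pairs. On the recovered reads edgeR 4.0.16 called 12390 genes and DESeq2 1.42.0 called 13252, against 12806 by limma. Scripts were tested on simulated data. Named were all 14 homeologs; from the nuclear Wnt and Groucho partner lists, up to 5 per direction with the smallest adjusted p; and ctnnb1, tle5, bcl9l and pygo1. Counts of reads give counting error only, and the precision given here comes from the fitted spread among libraries.

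The letters of the columns are not matched to replicate numbers in the labels. The pairing used as a block was taken from these letters. Same-letter libraries deviated together from their group means (correlations 0.326, 0.402 and 0.319 across genes), and libraries of unlike letters had correlations of -0.228 to -0.0905. Deviations from a group mean cancel within the group, so the negative values follow from the positive ones and are no separate observation. Alternatives were other scalings, pseudocounts of 0.5 and 5, means of at least 1 or 50, the block, summed homeologs (added after seeing the data) and leaving out each library.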

Additional observations from a re-analysis of the deposited data

How the results depend on the processing

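All 11 calls among the TCF/LEF, Groucho, Bcl9 and Pygo2 homeologs kept their direction and their side of the threshold in all 15 alternatives. Summed homeologs are a different quantity from either copy, and all 5 sums passed in the direction of their called copies. The share of all summed symbols that passed is not given, so this count has no background beside it. The sums of lef1 (log2 fold 0.84) and pygo2 (1.04) passed although lef1.L and pygo2.S did not pass alone. The replicate block gave 9 higher and 2 lower, as in the fit without it, with 13798 genes changed and 2575 pairs shifted, and changed no call among these homeologs or their pairs. Higher homeologs numbered 10 under upper quartile scaling and without K02288/CHIR library c, through pygo2.S. That scaling put the median over all genes at 0.22 on the log2 scale. Leaving out 1 library each gave a log2 fold of -0.089 to 0.40 for lef1.L, negative without K02288/CHIR library a (-0.089) or b (-0.064), and of -0.33 to 0.0053 for bcl9l.S, which was also positive under upper quartile scaling (0.064). None of these passed. Groucho partners that fell numbered 9 with means down to 1, where more genes are tested. They numbered 5 to 8 with 1 library left out, where the number tested can also change. Over all genes 7508 fell with means down to 1, and 5712 to 7029 with 1 library left out. The log2 fold of lef1.S ran from 2.96 to 4.02 with 1 library left out. Depth limits tcf7l2.L, pygo1 and most Groucho partners, which had few reads. Transcript lengths and sequences were not used here.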
